A study of Rattus norvegicus with 48 samples.

Results

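The lungs of air control rats differed from one another far more in some genes than in others, and this variation within the controls is described here. Its members are the 24 air libraries of a series of 48 rat lung libraries, chosen by their treatment label, and no exposed library entered any value. The rats were healthy male Sprague-Dawley animals, an outbred strain, kept in pairs on a 12-hour light-dark cycle. They had breathed filtered air in whole-body chambers for 6 hours a day on 4 days, in parallel with rats given 30 mg/m3 fracking sand dust with 1.0 mg/m3 diesel particles. Lungs were taken 1, 7 or 27 days after the last exposure, with 8 air libraries at each time. RNA came from a piece of lung, and poly(A) RNA was sequenced with a stranded kit. The labels give no age, cage, lobe or hour of killing.

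A piece of lung holds many tissues beside the gas-exchange surface. Heart-type muscle extends from the left atrium into the walls of the pulmonary veins of rats, mesothelium covers the lobes, and airways carry secretory and ciliated cells. Blood remains in the vessels, and stress and clock genes follow the state of the animal and the hour of sampling. In RNA from a whole piece, fewer cells of a type and less RNA per cell cannot be told apart.

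The 24 libraries held 10121462 to 14400337 counts (median 11661348.5), and mitochondrially encoded genes took 2.82% to 3.94% of counts after the closest libraries were joined. Markers of lung were abundant in all of them: the surfactant gene Sftpc averaged 8410 CPM (counts scaled to a common library size), the type 1 cell gene Ager 2289 CPM and the club cell gene Scgb1a1 7255 CPM. Within a day, 84 pairs of libraries were possible, and 2 pairs stood closer than any other: air day 7 libraries 1 and 4, and air day 27 libraries 3 and 6. Their median squared difference was 1.56 and 1.67 times that of counting noise, against 2.43 in the next pair, so their members still differed by more than counting noise. Their counts were added together and each pair was treated as 1 library, which left 22 libraries, 8 at day 1, 7 at day 7 and 7 at day 27. Whether the members of a pair share an animal or a tissue piece was not tested.

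Most genes were steady. For 11772 genes with a mean of at least 5 CPM, log2 CPM was centred on each day's mean, and the median within-day SD was 0.142 on the log2 scale. The SD expected from counting alone had a median of 0.0698. The middle of the distribution was narrow, with a 10th percentile of 0.0786 and a 90th percentile of 0.292. Spread was larger among weakly expressed genes, with a median SD of 0.243 for the 1596 genes at 5 to 10 CPM and 0.110 for the 489 genes at 300 CPM or more. An SD of at least 0.5 was reached by 272 genes, or 2.31%, and an SD of at least 1 by 88 genes. When the trend with level was removed, 83 of the 100 most variable genes were still among the first 100. Next to the limit of 5 CPM, Ccdc109b lay inside with a mean of 5.0 CPM and an SD of 0.333, and Adra2b just outside had an SD of 0.350. These SDs rank genes and carry no test.

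**Figure D1:**
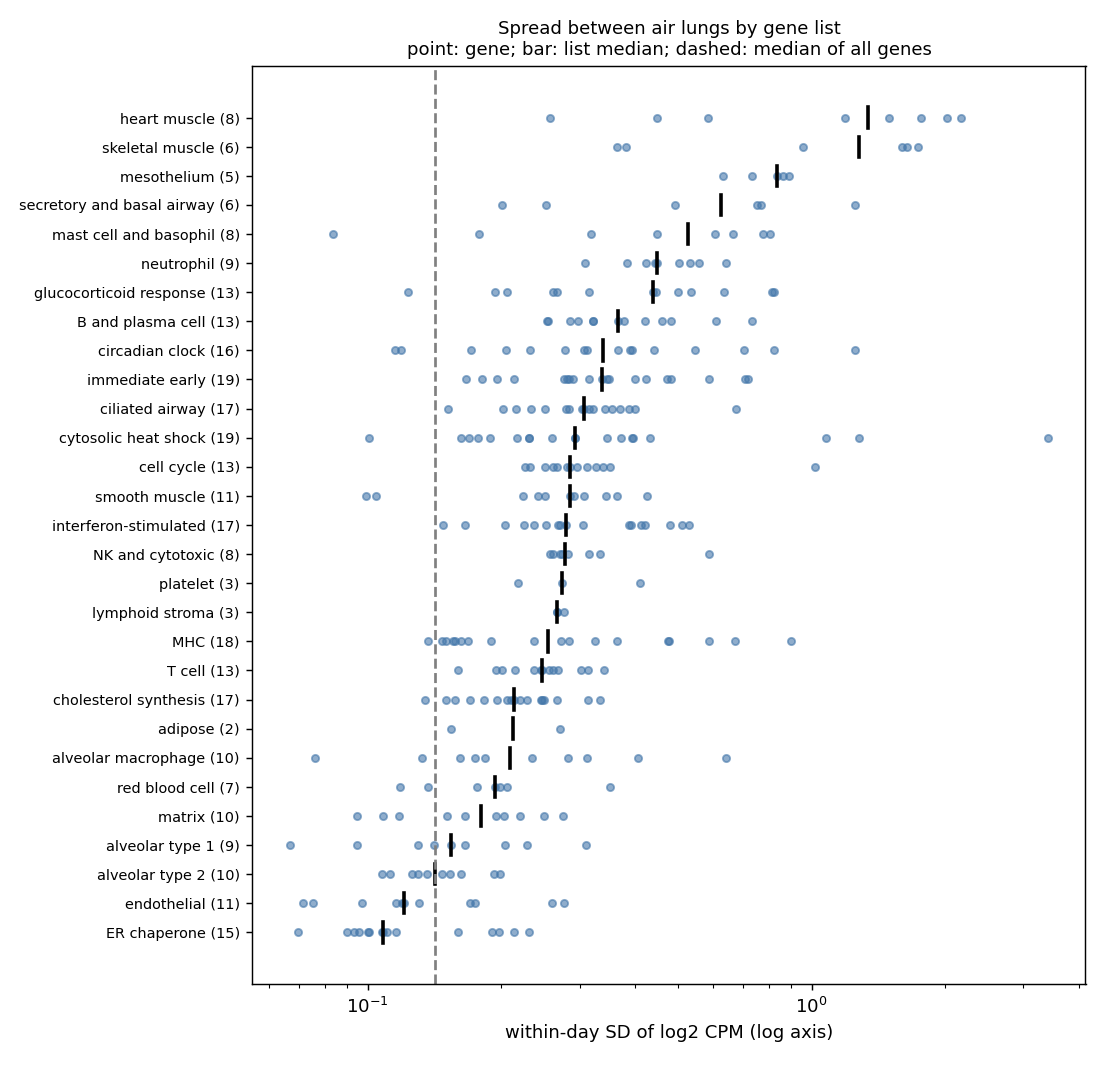
Within-day SD of log2 CPM over the 22 air libraries for the genes of each list with a mean of at least 5 CPM; the axis is logarithmic, each point is a gene, each bar a list median, and the dashed line the median over all 11772 genes, 0.142. Heart muscle (list median 1.34), skeletal muscle (1.28), mesothelium (0.834) and airway secretory genes (0.624) lie far to the right of type 2 cell (0.141) and endothelial genes (0.121). The skeletal muscle gene Acta1 reached a mean of 5 CPM only through 1 library, air day 7 library 2, and Ckm lay just above that limit at 5.01 CPM.

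The most variable genes of all were switched: close to 0 in some lungs and well measured in others. An on-off pattern, under 0.5 CPM in at least 1 library and over 5 CPM in another, was found in 64 genes, which included 47 of the 50 with the largest SD. Provisional names stood at the top, with LOC100910414 at an SD of 3.71 and AC096370.2 at 3.24, beside well-known genes. Aldh18a1, an enzyme of proline synthesis, had an SD of 3.70. Cpne1 had 3.58, the cytosolic chaperone Hsp90aa1 3.4, Ndst2 3.19 and Pigg 3.01.

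Aldh18a1 was at 0 CPM in day 1 libraries 1, 3, 4, 6 and 8, and at 27.1, 14 and 27.1 CPM in libraries 2, 5 and 7. At day 7 it was at 0 in libraries 2, 3, 5 and 7, at 30.5 CPM in library 6, at 13.6 CPM in library 8 and at 12.1 CPM in the joined libraries 1 and 4. At day 27 it was at 0 in libraries 1, 2 and 7, against 13.1 to 26.3 CPM in the other 4, which include the joined libraries 3 and 6. In each joined pair, 1 member read alone was at 0 CPM. The pattern was present on each day, and no value of the 22 libraries lay between 0 and 12 CPM. Hsp90aa1 read 0 CPM in libraries 3 and 4 of day 1 and libraries 5 and 7 of day 27, and 173 CPM in library 2 of day 7. Fam111a, with an SD of 1.95, had 2 separate levels, both above 0: it was at 3.50 to 11.6 CPM in 12 libraries and at 84.5 to 198 CPM in the other 10.

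The 2 close pairs of libraries show how such genes behave between the libraries most alike. In the day 7 pair, Aldh18a1 was at 23.1 CPM in library 1 and 0 CPM in library 4. Myh9, the non-muscle myosin heavy chain, read 45.0 CPM in library 1 and 0 CPM in library 4. In the day 27 pair, Aldh18a1 was at 27.5 CPM in library 3 and 0 CPM in library 6, and Cpne1 was at 0 and 25.6 CPM. Single genes thus read 0 in one library and were well measured in its closest neighbour, while few others differed: 30 and 35 of all 11772 genes differed by a log2 of 1 or more in the pairs. Of the 57 on-off genes outside the muscle lists, 15 and 19 differed that much. Of the 7 on-off muscle genes, 1 and 0 did. Of the 208 other genes with an SD of at least 0.5, 10 did in each pair. The typical differences gave no common order on the 2 days. Within the day 7 pair the muscle genes had a median absolute log2 difference of 0.568, inside the 0.334 to 6.77 of the other pairs of that day, while the other on-off genes had 0.223, against 0.300 to 1.20. Within the day 27 pair the muscle genes had a median absolute log2 difference of 0.106, against 0.280 to 3.39 in the other pairs of that day, while the other on-off genes had 0.502, against 0.532 to 2.45.

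**Figure D2:**
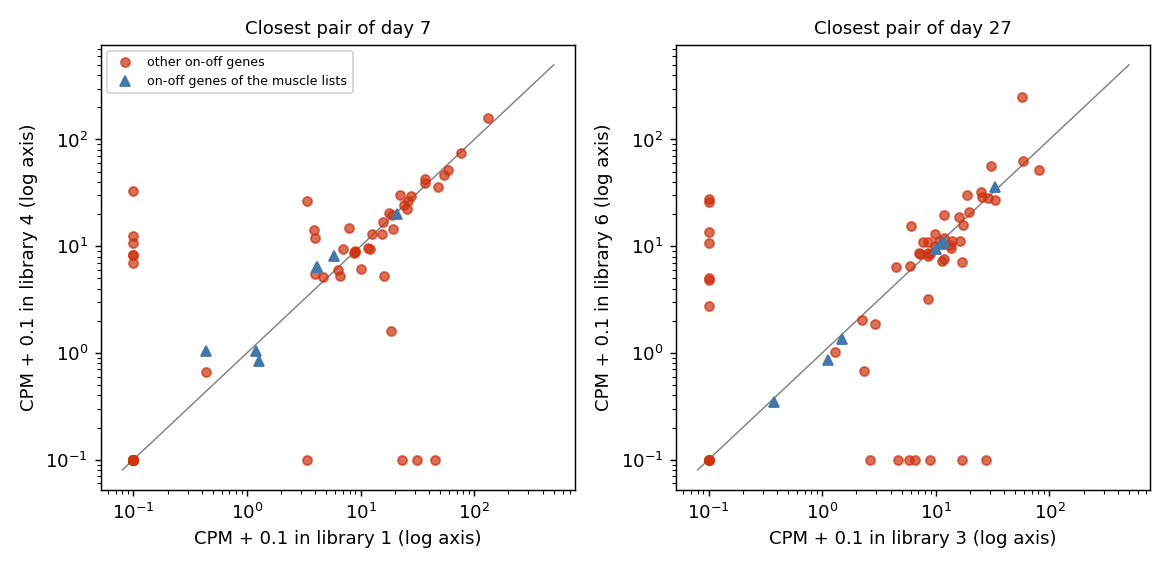
The 64 on-off genes in the closest pairs, library 1 against 4 of air day 7 and library 3 against 6 of air day 27, as CPM plus a small constant on log axes, so that values of 0 lie at the lower or left edge; the line marks equal values, triangles are the 7 genes of the muscle lists and circles the other 57. Muscle genes lie near the diagonal, with 1 exception at day 7, and 15 (day 7) and 19 (day 27) of the other genes differ by a log2 of 1 or more (with a prior count of 2).

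Identifiers that share their gene name with another identifier made up 23.4% of the on-off genes, 15 of 64, against 1.83% of all 11772 genes. Reads that match several identifiers are divided by estimation in this kind of table, so a value of 0 for one of them is uncertain. The part of that step in the on-off pattern was not tested. An identifier named Rps6, a ribosomal protein of the small subunit, had an SD of 2.99, which was far above the SDs of the ribosomal protein genes used further down.

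The tests below ask which genes followed a marker gene from library to library. Each is the slope of a gene's log2 level on the day-centred log2 CPM of the marker, with day as a factor (edgeR quasi-likelihood, 22 libraries, Benjamini-Hochberg adjusted p under 0.05 over 11771 genes); a slope of 1 means that the gene moved fold for fold with the marker. Of 72 ordered pairs between the 9 marker genes, 2 passed, the slopes of Fkbp5 and of S100a9 on Dnah5, both negative. Both come from the fit on Dnah5, in which 39% of all genes passed. The reverse slopes, of Dnah5 on Fkbp5 and on S100a9, did not pass (adjusted p = 0.151 and 0.0701).

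Heart muscle genes had the largest median SD of the lists, 1.34. Myh6, the alpha myosin heavy chain of rodent heart, ranged at day 1 over 1.07 to 142 CPM with a median of 22.7 CPM. At day 7 its range was 0.404 to 96.3 CPM (median 20.4), and at day 27 it was 6.09 to 150 CPM (median 34.6). Each day had both muscle-rich and muscle-poor lungs: libraries 7, 8 and 3 were high at day 1, libraries 2, 7 and 6 at day 7, and libraries 2 and 4 at day 27, while library 1 of day 1 and library 5 of day 7 held almost none. With Myh6, 9 genes were called and all were higher, 0.0765% of the genes tested. The atrial light chain Myl7 had a slope of 0.99 ± 0.035 (SE, adjusted p = 3.94e-15), cardiac troponin T Tnnt2 0.73 ± 0.028 (adjusted p = 1.26e-14), and the atrial light chain Myl4 0.87 ± 0.041 (adjusted p = 8.85e-13).

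Of the 20 genes of the heart list, 8 had a mean of at least 5 CPM, and 6 of the 7 beside Myh6 were called. Their median slope was 0.57, against -0.0010 for all genes. Tnni3, cardiac troponin I, had a slope of 0.57 ± 0.041, and Ankrd1 and Ldb3 followed with shallower slopes of 0.10 and 0.17. Actc1, the cardiac alpha actin, had a slope of 0.20 ± 0.041 and did not pass (adjusted p = 0.0855). Outside the list, Cmya5 (0.43) and Hspb7 (0.24), both muscle genes, were called. When genes down to a mean of 1 CPM were tested, 14 of 14 heart genes were called.

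Some skeletal muscle genes had a different distribution, and Acta1 was carried by 1 library. Acta1, the skeletal alpha actin, was at 140 CPM in air day 7 library 2 and at 0.811 to 5.97 CPM in the other 6 libraries of that day. It was at 0.604 to 3.38 CPM at day 1 and 0.265 to 1.99 CPM at day 27. Only through air day 7 library 2 did Acta1 reach the limit of a mean of 5 CPM, so its place among the most variable genes depended on that library. Myh1, a fast skeletal myosin, had 209 CPM as its highest value at day 7 and 1.29 CPM as its median. Ckm, muscle creatine kinase, which heart also expresses, was the 1 of 6 skeletal list genes called with Myh6, at 1.01 ± 0.16 (adjusted p = 0.00574). All 6 had a slope above 0 on Myh6, with a median of 0.43. The mean of Ckm was 5.01 CPM, just above the limit. It was tested in 24 alternative settings, against 28 for Myl7, and was called in all 24. No cartilage gene of 10 reached 5 CPM.

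**Figure D3:**
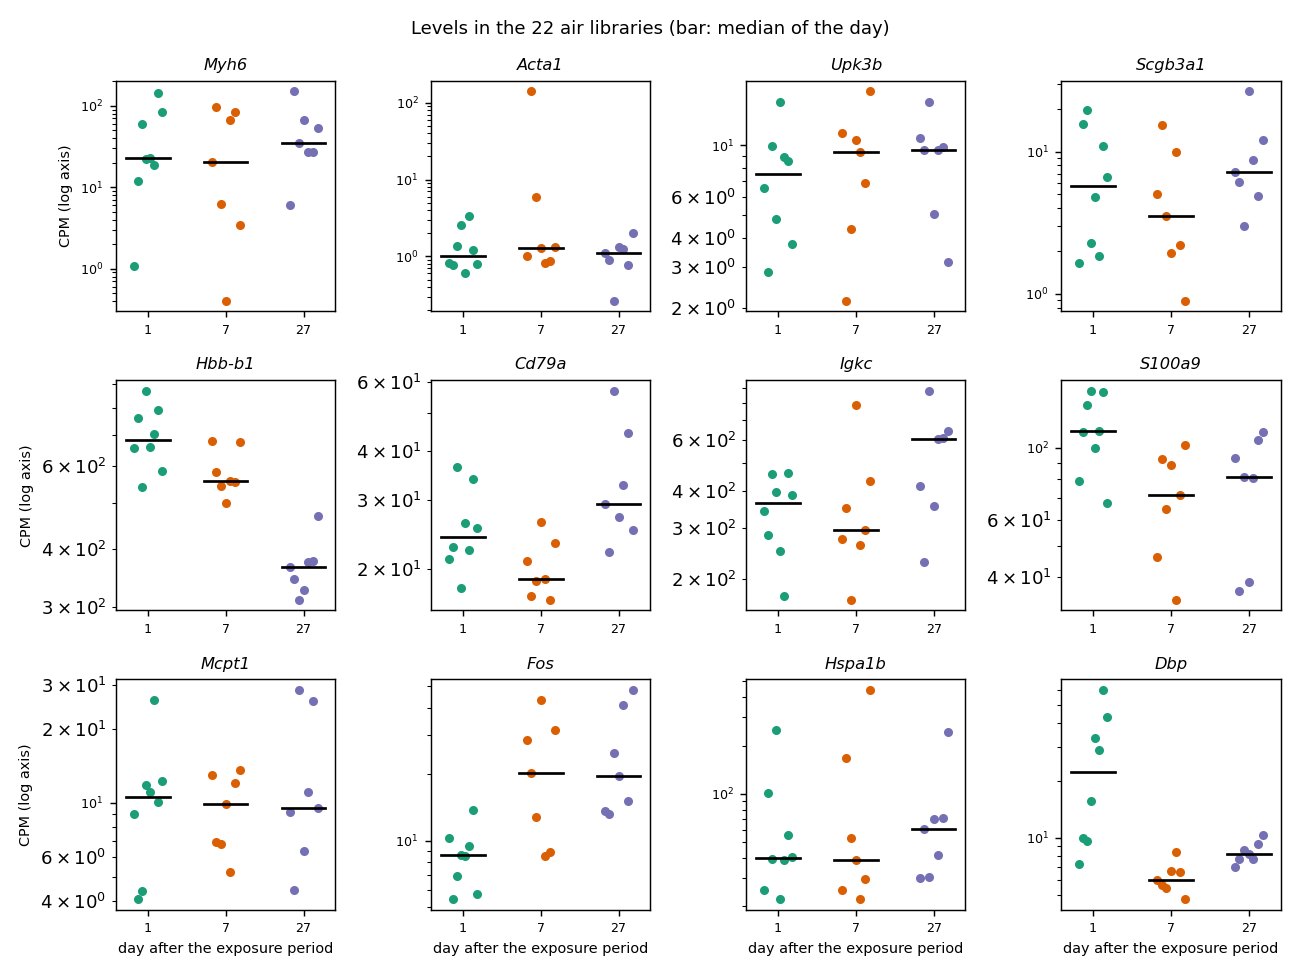
CPM on a log axis of 12 genes in each of the 22 air libraries at day 1, 7 and 27; points are libraries and bars are day medians. Myh6 spans 1.07 to 142 CPM at day 1, Acta1 has 1 library at 140 CPM at day 7, and Dbp is spread at day 1 (7.25 to 60.2 CPM) and tight at day 7 (4.73 to 8.38 CPM).

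Genes of the lung surface and of the airway formed groups of their own among the 300 most variable genes; these groups were read from the same values and carry no test. All 5 measured mesothelial genes had an SD of at least 0.5, from 0.633 for mesothelin (Msln) to 0.888 for the uroplakin Upk1b. They clustered in a group of 12 genes with Gpm6a, Stmn2, Dhrs9, Igfbp6 and others. Upk3b, a uroplakin of mesothelium, was at 2.85 to 15.4 CPM (median 7.54) at day 1, 2.15 to 17.0 CPM (median 9.37) at day 7 and 3.14 to 15.3 CPM (median 9.55) at day 27. The group's mean was highest in air day 7 library 8, at a log2 of 1.08 above the day mean, and lowest in air day 7 library 2, at -1.20.

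Airway secretory genes did the reverse in those 2 libraries. A group of 6, Scgb3a1, Bpifb1, the mucin Muc5b, Clic6 and the cytochrome P450 genes Cyp2f4 and Cyp2a3, stood at 1.09 in air day 7 library 2 and at -1.29 in library 8. It was also high in air day 27 library 4 (1.08) and low in library 7 (-0.90). Scgb3a1, a secretoglobin of larger airways, was at 1.65 to 19.8 CPM (median 5.73) at day 1, 0.893 to 15.3 CPM (median 3.54) at day 7 and 3.0 to 26.5 CPM (median 7.19) at day 27. Scgb1a1, the club cell gene, had an SD of 0.200, below those of this group but above the median of 0.110 for genes at its level (90th percentile 0.204).

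For ciliated cells the marker fixed first, Foxj1, had no row, and the next, Dnah5, tracked a different axis given further down. Rsph1, a radial spoke protein of motile cilia, was therefore used as well, a choice made after its values were seen. Rsph1 was at 10.2 to 18.1 CPM (median 14.4) at day 1, 10.9 to 16.1 CPM (median 12.9) at day 7 and 11.9 to 22.5 CPM (median 17.3) at day 27. These are narrow ranges beside those of the muscle genes, with libraries 4 and 8 of day 27 highest. With Rsph1, 83 genes (0.705%) were higher and 2 lower (0.722% together), and 10 of 16 ciliated list genes were among the higher, with a list median slope of 0.81 against -0.016 for all genes. Dnah5 was not among them, at 0.88 ± 0.47 (adjusted p = 0.99). With Tekt1, a ciliated marker also tried after seeing the data, 0 of 15 ciliated list genes were called, with a median slope of 0.59. Ccdc153 had a slope of 0.76 ± 0.089 (adjusted p = 0.000189), the axonemal gene Cfap43 1.00 ± 0.15 (adjusted p = 0.00162) and the dynein intermediate chain Dnai1 1.06 (adjusted p = 0.00543). Bpifb1, a secretory gene, was steeper, at 2.18 ± 0.37 (adjusted p = 0.00451), and Scgb3a2 (0.66), Myb (0.77) and Tp73 (0.89), the last 2 regulators of multiciliated cells, were called too. The count of 85 became 39 without air day 27 library 4, 53 without libraries 3 and 6 of that day, 56 without air day 1 library 4, and 160 without air day 27 library 2.

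Dnah5, an outer-arm dynein heavy chain encoded by a very long gene, was at 3.38 to 7.61 CPM (median 5.52) at day 1. It was at 6.43 to 21.2 CPM (median 13.0) at day 7 and 1.61 to 12.1 CPM (median 3.53) at day 27. Many of these values lay near or under the limit of 5 CPM. Its SD of log2 CPM was 0.436, 0.504 and 0.988 on those days, so its spread was widest at day 27. With Dnah5, 2260 genes (19.2%) were higher and 2331 (19.8%) were lower. The lower genes with the smallest p were Cnpy2 (-0.18), LOC686442 (-0.21) and Psmb3 (-0.21), a proteasome subunit. Of 51 ribosomal protein genes, 49 were lower, among them Rplp2 at -0.29. The higher genes were led by Dnah11, another outer-arm dynein (0.40 ± 0.032, adjusted p = 4.30e-08), and by Setbp1, Map1b, Ppp1r12b, Pde3a and Baz2a, which are not ciliary genes. Gene spans differed in the same sense, with a median of 76872 bases for the higher genes, 10797 bases for the lower and 26244 bases for all genes tested with a known span (89.1% of them; RefSeq, GRCr8). Of the 16 ciliated genes, 8 were higher, with a list median of 0.21 against -0.019 for all genes, and of 15 chaperones of the endoplasmic reticulum, 11 were lower, with a median of -0.11. The part of RNA quality or of library preparation in this axis was not tested.

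The mean log2 level of 51 ribosomal protein genes tended to be high in libraries with little Dnah5, though the orders were not mirror images. At day 27 it was 0.257 above the day mean in library 7, 0.180 in libraries 3 and 6, -0.118 in library 4 and -0.242 in library 2. At day 1 it was 0.166 in library 3 and 0.117 in library 4, against -0.115 in library 1. At day 7 it stayed between -0.056 and 0.102, with library 8 highest. The largest group among the 300 most variable genes, 48 genes that include Itga1, Hipk2, Lyst, Kdm7a and Dnah5, was low in air day 27 library 7 (-1.78) and air day 1 library 4 (-1.31), and high in air day 27 libraries 2 (0.956) and 4 (0.816). The first principal component, 22.5% of the variance, had the same libraries at its ends. With the ribosomal protein level as a covariate, 1 gene was still called with Dnah5, Dnah11 (0.35, adjusted p = 0.0313).

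**Figure D4:**
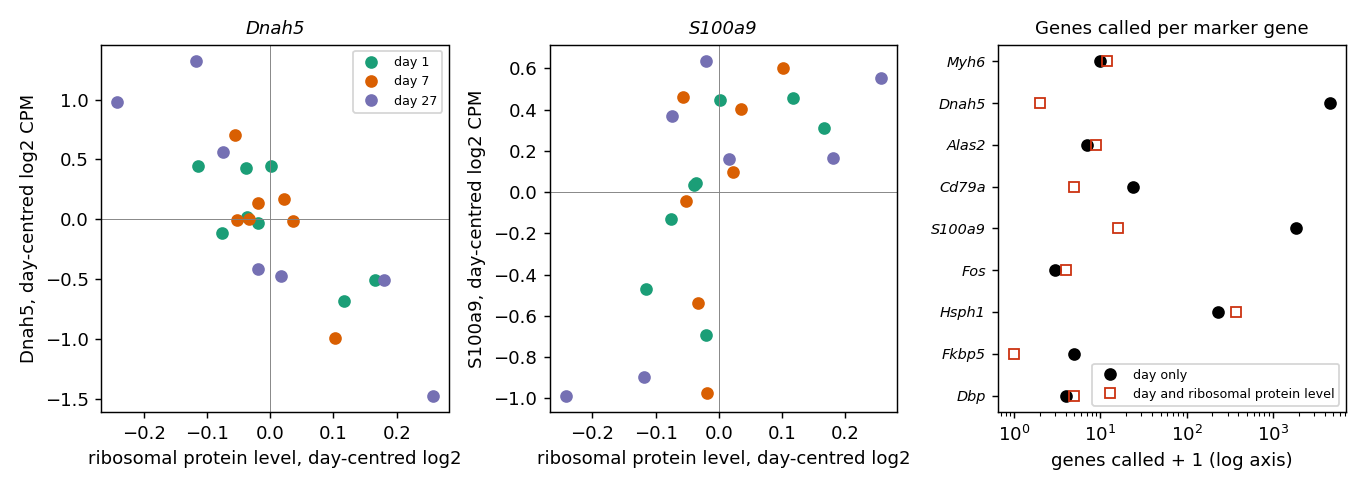
Left panels, day-centred log2 CPM of Dnah5 and S100a9 against the mean log2 level of 51 ribosomal protein genes in the 22 air libraries, coloured by day. Right panel, number of genes called plus 1 for each marker gene on a log axis, without and with that level as a covariate: Dnah5 goes to 1 gene and S100a9 to 15 genes, while Hsph1 has 376.

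Red cell genes had a list median SD of 0.194, above the median of 0.142 for all genes and below those of the muscle and airway secretory lists. Alas2, the erythroid enzyme of heme synthesis, was at 35.1 to 54.4 CPM (median 46.0) at day 1, 28.9 to 45.9 CPM (median 33.8) at day 7 and 15.5 to 21.5 CPM (median 18.0) at day 27. Hbb-b1, a beta globin, was at 541 to 871 CPM (median 682), 500 to 680 CPM (median 558) and 311 to 471 CPM (median 365) on those days. Both genes were lowest at day 27, and days were not compared by a test. With Alas2, 6 genes were called, all higher (0.051%). The red cell genes among them were Hbb-b1 (slope 0.86 ± 0.10, adjusted p = 0.000298), Hba1 (0.83), Hbb (0.69), Hba2 (0.86) and the anion exchanger Slc4a1 (1.33 ± 0.24, adjusted p = 0.0287). The remaining one, AC113925.2 (0.80), has only a provisional name. Globin copies share much sequence, so their separate values are uncertain. Of 6 measured red cell list genes, 3 were called (list median slope 0.51, all genes -0.0018), and Bpgm, Slc25a37 and Fech, which other tissues express too, were not. The count was 2 on leaving out air day 1 library 3, 4 or 8, air day 7 library 3 or the joined 1 and 4, or air day 27 library 8, and to 3 without air day 1 library 2.

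B cell genes followed one another. Cd79a, the signalling chain of the B cell receptor, was at 17.8 to 36.3 CPM (median 24) at day 1, 16.6 to 26.4 CPM (median 18.8) at day 7 and 22.1 to 56.9 CPM (median 29.2) at day 27. The joined day 27 libraries 3 and 6 were highest and library 7 of that day came next at 44.3 CPM. With Cd79a, 20 genes (0.17%) were higher and 3 (0.0255%) lower. Its partner Cd79b had a slope of 0.95 ± 0.094 (adjusted p = 8.41e-06), the surface antigen Ms4a1 1.17 ± 0.13 (adjusted p = 1.93e-05), Cd72 1.13, the B cell coactivator Pou2af1 0.59 and Ighm, the IgM heavy chain, 0.87. Of 12 B and plasma cell genes, 5 were called, with a list median slope of 0.61 against 0.011 for all genes. The lower genes were Hpgd, Filip1l and Uaca.

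Plasma cell genes did not pass that test. Igkc, the kappa light chain, had a slope of 0.97 on Cd79a (adjusted p = 0.155) and Mzb1, a chaperone of antibody secretion, 1.22 (adjusted p = 0.136). Igkc was at 175 to 462 CPM (median 365) at day 1, 170 to 788 CPM (median 295) at day 7 and 229 to 884 CPM (median 605) at day 27. Igkc, Mzb1, Igj and Igh-1a lay in a group of 8 of the most variable genes whose mean was highest in air day 7 library 5 (1.52), where Cd79a was also the highest of its day at 26.4 CPM, and lowest in air day 27 library 2 (-1.23). Immunoglobulin genes share sequence, and their separate values are uncertain. The number of genes called with Cd79a rested on single libraries. It was 8 without air day 27 libraries 3 and 6, 10 without library 2, 13 without library 7 and 14 without library 4 of that day, and 13 without air day 1 library 3. It was 38 without air day 7 library 7 and 1325 without air day 1 library 4. With the ribosomal protein level as a covariate 4 genes passed, Ms4a1, Cd79b, Faim3 and Osbpl8.

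Neutrophil genes moved with a wide set. S100a9, a calcium-binding protein that fills neutrophils, was at 67.6 to 150 CPM (median 112) at day 1, 34.0 to 102 CPM (median 71.8) at day 7 and 36.3 to 112 CPM (median 81.0) at day 27. Air day 27 libraries 2 and 4 were lowest on their day. With S100a9, 839 genes (7.13%) were higher and 1039 (8.83%) lower. Its partner S100a8 had a slope of 1.1 ± 0.081 (adjusted p = 2.30e-08), the cytokine Il1b 0.78 (adjusted p = 3.07e-06) and the granulocyte growth factor receptor Csf3r 0.73 (adjusted p = 5.67e-05). Lrg1, Ifit1lb and Pla2g7 were among the closest too. Of 8 neutrophil genes, 6 were called (list median slope 0.67, all genes 0.013), and the chemokine receptor Cxcr1 (0.056) and Trem1 (0.19) were not. Among the higher genes were also 20 of 51 ribosomal protein genes.

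With the ribosomal protein level as a covariate, 15 genes (0.127%) were called with S100a9, all higher, and 4 of the 8 neutrophil list genes were among them. The calls included S100a8 (1.07, adjusted p = 6.43e-06), Il1b (0.78, adjusted p = 0.000134), Csf3r (0.89), the chemokine receptor Cxcr2 (0.95), the collagenase Mmp8 (0.86), Clec4d, Lrg1, Ifit1lb, Pla2g7, Il1rn, Cyp4f18, Stfa2, Stfa2l3 and Mov10. Without that covariate the count was 49 when air day 27 library 2 was left out, and 4 of the 8 neutrophil genes were then called. It was 763 without library 7, 840 without library 4 and 1226 without library 8 of day 27, 913 without air day 7 library 8, and 1011 and 1233 without air day 1 libraries 4 and 1.

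Smaller immune groups were found among the 300 most variable genes, again without a test. Mast cell proteases Mcpt1, Mcpt2, Tpsb2 and Cpa3 grouped with Mcpt8l2 and with Cyp1a1, a target of the aryl hydrocarbon receptor. At day 27 the group stood 1.25 above the day mean in libraries 3 and 6 and 1.23 in library 7, against -1.57 in library 2. Mcpt1 was at 4.06 to 26.1 CPM (median 10.6) at day 1, 5.23 to 13.6 CPM (median 9.87) at day 7 and 4.43 to 28.7 CPM (median 9.50) at day 27. Cyp1a1 was at 13.0 to 38.9 CPM, 10.6 to 22.9 CPM and 0.788 to 15.4 CPM on those days. The 3 days thus overlapped for Mcpt1, and for Cyp1a1 day 27 reached lowest.

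Class I major histocompatibility genes formed a group of 5 with LOC100364500, namely RT1-CE2, RT1-CE4, RT1-CE6 and RT1-CE10, which differed in direction between lungs of the same day. It stood at 1.12 in air day 7 library 8 and at -1.52 in libraries 1 and 4, at 1.01 in air day 27 library 5 and at -1.19 in air day 1 library 5. RT1-CE4 was at 89.2 to 223 CPM at day 1, 78.8 to 290 CPM at day 7 and 94.8 to 287 CPM at day 27. These genes are near-identical copies and vary between individuals, so reads can be divided among them differently from rat to rat. The interferon-induced genes Ifit3, Mx1 and Mx2 grouped with granzyme Gzmb, and stood 0.778 and 0.705 above the day mean in air day 27 libraries 7 and 8, against -0.713 in air day 1 library 2. Mx1 was at 61.1 to 175 CPM at day 1, 68.5 to 119 CPM at day 7 and 41.8 to 117 CPM at day 27.

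Heat shock genes followed one another closely. Hsph1, a large cytosolic chaperone of the Hsp110 family, was at 91.5 to 144 CPM (median 116) at day 1, 94.5 to 283 CPM (median 119) at day 7 and 89.0 to 183 CPM (median 120) at day 27. Hspa1b, the classic inducible Hsp70, was at 22.2 to 248.6 CPM (median 40.1), 22.3 to 443 CPM (median 39.0) and 29.9 to 244 CPM (median 60.6). Air day 7 library 8, air day 27 library 8 and air day 1 library 4 stood out on their days for Hspa1b. With Hsph1, 164 genes (1.39%) were higher and 66 (0.561%) lower.

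The higher genes were led by partners of Hsp70 and Hsp90. The J-domain cochaperone Dnaja1 had a slope of 0.99 ± 0.043 (adjusted p = 4.21e-13), Cacybp 0.64 (adjusted p = 1.37e-09), Chordc1 0.71 and Fkbp4 0.53 (both adjusted p = 8.64e-09), and Dnajb1 0.82 and Stip1 0.56 (both adjusted p = 3.68e-08). Hspa1b was steeper, at 3.05 ± 0.31 (adjusted p = 6.75e-06), as was its near-identical neighbour Hspa1a at 2.27 ± 0.39 (adjusted p = 0.00364), so the Hsp70 genes had the wider swings. The small chaperone Hspb1 (0.50), the cochaperone Bag3 (0.51) and the mitochondrial chaperonin Hspd1 (0.19) were called as well. In all, 14 of 18 genes of the list were called, with a median slope of 0.50 against -0.00022 for all genes. Hsp90ab1 had a slope of 0.45 (adjusted p = 1.51e-06), while Hsp90aa1, the on-off gene above, had -0.96 ± 1.11 (adjusted p = 0.704). Hspa8, the constitutive Hsp70, had 0.45 ± 0.22 (adjusted p = 0.346), and Cryab and Hspa4l also missed the threshold.

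The heat shock factor Hsf1 binds repeats of the unit nGAAn in alternating orientation. The promoters of Hsph1, the marker gene, and of Dnaja1 and Dnajb1, 2 of its closest followers, are shown because each holds such a pair of units. They are the 250 bases before the gene's start in RefSeq (GRCr8), 5′ to 3′ on the gene's strand, with capitals marking each match to GAANNTTC or TTCNNGAA, both of which read the same on either strand.
Hsph1 (chr12:10427118-10427367, plus strand): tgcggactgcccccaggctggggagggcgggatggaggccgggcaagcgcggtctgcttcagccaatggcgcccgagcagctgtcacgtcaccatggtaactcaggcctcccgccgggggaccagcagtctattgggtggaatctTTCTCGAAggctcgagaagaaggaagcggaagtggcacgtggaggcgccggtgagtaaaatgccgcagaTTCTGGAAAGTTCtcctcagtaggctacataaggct
Dnaja1 (chr5:60638154-60638403, plus strand): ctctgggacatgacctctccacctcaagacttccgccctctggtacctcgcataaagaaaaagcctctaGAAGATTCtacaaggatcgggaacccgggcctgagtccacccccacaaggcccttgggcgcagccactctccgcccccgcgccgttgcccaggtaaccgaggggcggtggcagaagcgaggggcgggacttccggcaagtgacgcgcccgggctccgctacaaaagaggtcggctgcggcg
Dnajb1 (chr19:41431142-41431391, minus strand): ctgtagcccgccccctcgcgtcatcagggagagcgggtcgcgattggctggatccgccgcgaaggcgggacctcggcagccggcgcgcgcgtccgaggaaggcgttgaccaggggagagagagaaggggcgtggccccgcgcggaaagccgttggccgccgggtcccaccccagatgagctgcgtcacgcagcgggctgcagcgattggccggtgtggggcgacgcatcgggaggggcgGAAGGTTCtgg
In Hsph1 the matches begin at -105, -36 and -31 from the start, and the last 2 overlap in a run of 3 units. In Dnaja1 the match begins at -181 and in Dnajb1 at -11. Of the 15 heat shock genes made up of Hsph1 and the 14 called, 13 had a promoter in the table and 9 of these held a unit pair, as did 4534 of all 33469 promoters of that length (13.5%). The run of 3 units, GAANNTTCNNGAA or TTCNNGAANNTTC, was in Hsph1 and Hspd1 and in 222 promoters overall (0.663%). Of the 4 list genes that were not called, 2 had a promoter and 1 of them, Hspa8, held both a pair and the run of 3 units. That run was thus in 2 of the 13 promoters above and in 1 of these 2. A match is a description of letters and not a bound site.

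**Figure D5:**
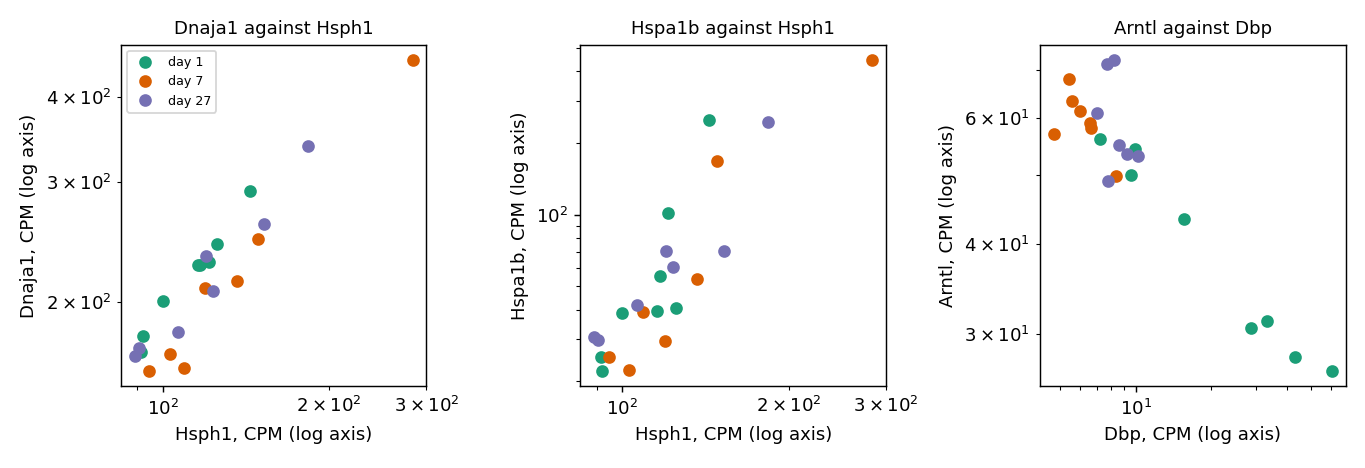
CPM on log axes in the 22 air libraries for Dnaja1 against Hsph1, Hspa1b against Hsph1 and Arntl against Dbp, not centred and coloured by day. Dnaja1 follows Hsph1 with a slope of 0.99, Hspa1b with 3.05, and Arntl has a slope of -0.40 on Dbp, with the widest Dbp spread at day 1.

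Other stress-related genes joined Hsph1 in part. The phosphatase Dusp1 (0.81, adjusted p = 0.00494) and the mRNA-decay factor Zfp36 (0.71, adjusted p = 0.0158) were higher, 2 of 19 immediate early genes. Of 13 genes of the glucocorticoid list, 3 were higher: Tsc22d3 (1.02, adjusted p = 0.00156), Cebpd (0.96, adjusted p = 0.0149) and Per1 (1.52, adjusted p = 0.0104). Per1 is on the clock list too. Among all genes tested, 1.39% were higher. Fkbp5, of the same glucocorticoid list, had a slope of 0.13 ± 0.17 (adjusted p = 0.736). The cold-inducible RNA-binding gene Cirbp was lower, at -0.41 (adjusted p = 0.00127), as were Mgea5 (-0.25), Blm (-0.48) and Gata3 (-0.75). Fos itself had a slope of 0.33 ± 0.37 (adjusted p = 0.70). Of 15 chaperones of the endoplasmic reticulum 1 was called, Herpud1. A group of variable genes with Per1, Ddit4, Tsc22d3, Cebpd and Nfkbia stood 1.38 above the day mean in air day 7 library 8, the library with the most Hsph1. Per1 and Tsc22d3 each had their highest value of that day in this library. Without that library 67 genes were called with Hsph1, and 12 of the 18 heat shock genes were among them. Whether Dusp1, Zfp36, Tsc22d3, Cebpd and Per1 were called without it is not given here, so their slopes may rest on it. The count was 141 without the joined air day 7 libraries 1 and 4, 146 without air day 27 library 8 and 149 without library 1 of that day.

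Immediate early genes, which are transcribed within minutes of a stimulus, formed a small programme. Fos was at 5.44 to 13.8 CPM (median 8.59) at day 1, 8.56 to 43.2 CPM (median 20.3) at day 7 and 13.2 to 48.1 CPM (median 19.6) at day 27. Lungs of days 7 and 27 reached levels that no day 1 lung had. With Fos, 2 genes were called, both higher (0.017%): the AP-1 partner Fosb (0.83 ± 0.13) and the zinc finger factor Egr1 (0.71 ± 0.11), each with an adjusted p of 0.0142. These were 2 of 18 measured list genes (median slope 0.14, all genes 0.0022), and Junb, at 0.30, just missed (adjusted p = 0.0586). The calls were lost without air day 7 library 5, 6 or 7 or air day 27 library 8. Unadjusted p-values under 0.05 were reached by 474 genes, fewer than the 589 that make 5% of those tested, and DESeq2 called 5.

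Genes of the glucocorticoid response were not called with Fkbp5, a cochaperone induced by corticosterone. With Fkbp5, 2 genes were higher (0.017%), Igfbp2 (0.81, adjusted p = 0.0127) and Ctgf (0.80, adjusted p = 0.0415), and 2 were lower (0.017%), Fzd1 (-0.32) and Hivep3 (-0.60). All 12 measured list genes had a slope above 0, with a median of 0.46 against 0.012 for all genes, but other lists were as one-sided, with 17 of 17 interferon-stimulated and 8 of 8 NK and cytotoxic genes above 0 and 0 of 11 smooth muscle genes. None of the 12 was called by edgeR over all 22 libraries, 6 were without air day 1 library 5, and 2 were by DESeq2, while 2426 of all genes had an unadjusted p under 0.05. The count rested on single libraries and settings: it was 0 without air day 7 libraries 1 and 4 or air day 27 library 7, 1206 without air day 1 library 5, and 196 with DESeq2.

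Clock genes set lungs of day 1 apart from one another. Dbp, a transcription factor driven by the clock, was at 7.25, 9.94, 9.61 and 15.6 CPM in air day 1 libraries 1 to 4 and at 33.4, 28.9, 60.2 and 43.2 CPM in libraries 5 to 8. At day 7 it was at 4.73 to 8.38 CPM and at day 27 at 7.04 to 10.3 CPM. The SD of log2 CPM was 1.12 at day 1, against 0.257 at day 7 and 0.179 at day 27. Arntl (Bmal1), the clock activator, was at 56.1, 54.3, 49.9 and 43.4 CPM in day 1 libraries 1 to 4 and at 31.2, 30.6, 26.7 and 27.9 CPM in libraries 5 to 8, with 49.8 to 68.0 CPM at day 7 and 49.0 to 72.1 CPM at day 27. The 4 day 1 lungs with the most Dbp were thus the 4 with the least Arntl, and they lay outside the range of the later days for both genes.

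With Dbp, 2 genes were higher (0.017%), its relative Tef (0.29 ± 0.034, adjusted p = 0.000102) and the period gene Per3 (0.48 ± 0.060, adjusted p = 0.000155), and 1 was lower (0.0085%), Arntl (-0.40 ± 0.045, adjusted p = 0.000102). All 3 (0.0255% of genes tested) belong to the 15 measured clock genes, whose median slope was 0.097 against -0.0019 for all genes. The same 3 were called on leaving out any 1 library, with 5 genes in all without air day 7 library 5 and 6 without library 8. DESeq2 called 14 genes, 5 of them on the clock list. The repressor Nr1d1 (REV-ERB alpha) had a slope of 1.03 ± 0.29 (adjusted p = 0.665) and Nr1d2 0.54 ± 0.12 (adjusted p = 0.313). Nr1d1 was at 26.9 to 166 CPM at day 1, 5.78 to 52.8 CPM at day 7 and 3.54 to 55.3 CPM at day 27, so it ranged widely on all 3 days, unlike Dbp. The hour at which each rat was killed is not in the labels and its part in this was not tested.

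REV-ERB and ROR factors bind the Arntl promoter at elements of the form GTAGGTCA, and the 250 bases before its start (RefSeq, GRCr8, where its symbol is Bmal1; 5′ to 3′) are shown because Arntl was the gene that moved against Dbp. Capitals mark the match to GTAGGTCA, searched on both strands (TGACCTAC on the other).
Bmal1 (chr1:176766078-176766327, plus strand): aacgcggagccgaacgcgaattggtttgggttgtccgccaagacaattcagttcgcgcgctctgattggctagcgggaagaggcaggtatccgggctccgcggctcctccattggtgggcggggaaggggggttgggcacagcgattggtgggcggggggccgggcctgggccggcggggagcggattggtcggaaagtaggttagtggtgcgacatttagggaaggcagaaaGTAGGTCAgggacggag
The match begins at -17. The same 8 letters, on either strand, are in 170 of 33469 promoters of that length (0.508%). Between lungs, Arntl was lowest in air day 1 libraries 7 and 8, and Nr1d1 had its highest value, 166 CPM, in library 7 of that day. The highest Nr1d1 value was 9.13 times the lowest at day 7 and 15.6 times at day 27. For Arntl the same ratios were 1.37 and 1.47. A relation between Nr1d1 and Arntl was not tested.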

How the data were processed

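The authors deposited a table of estimated counts per gene for each day, and 5.54% of the values used are not whole numbers. Per the submitters' processing notes, bcl2fastq 2.19, cutadapt 3.4, Trim Galore 0.6.7, STAR 2.6.1d, Salmon 1.10.1 and the Rnor_6.0 genome were used, and their settings are not given in the sources used here. The 24 air columns were joined by gene identifier (32285 identifiers, 4671 of them sharing a gene name) and rounded. The 2 closest pairs of libraries were summed. CPM used TMM factors, and log2 CPM a prior count of 2. Genes with a mean of at least 5 CPM were ranked by the pooled within-day SD (19 degrees of freedom). Groups of co-varying genes came from average linkage of the 300 most variable genes, joined down to a Pearson r of 0.6, with at least 5 genes.

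Slopes on 1 marker gene per programme were tested with edgeR 4.0.16 (robust quasi-likelihood, R 4.3.3), with day as a factor and Benjamini-Hochberg adjustment over all genes, and the code was tested on simulated data. DESeq2 1.42.0 was an alternative. The marker for ciliated cells was to be Foxj1, which has no row, so the next in order, Dnah5, was used. The ribosomal protein level is the mean day-centred log2 CPM of the 51 ribosomal protein genes with a mean of at least 100 CPM. The members, gene lists and marker genes were chosen with earlier results of these data known. Named genes are those with the largest SD, the smallest p in each direction for each marker, and list members that passed or ranked high. Others, such as Nr1d1, Cyp1a1 and Fam111a, were named after their values were seen. Nothing in the labels says more than that the libraries are separate lung samples, so p-values measure the spread between these samples. Alternatives were leaving out each library, unsummed pairs, RLE size factors, DESeq2, a minimum mean of 1 CPM, and the log2 total count or the ribosomal protein level as a covariate. Totals of 10121462 to 14400337 counts limit the precision of genes near 5 CPM.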

Additional observations from a re-analysis of the deposited data

Results flagged for a closer look

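Each of 96 groups was 1 of the genes shown, the ribosomal protein level or the total count on 1 day. Among them, 12 held a library whose gap to its nearest neighbour exceeded Dixon's 95% critical value for the range of the group. Chance flags about 1 in 20 groups of genes picked without regard to their values, but many of these genes were picked for their spread, so that rate is no yardstick for the 12. For Myh6, air day 27 library 2 stood at 150 CPM, and the others at 6.09 to 67.2 CPM. For Acta1, air day 7 library 2 stood at 140 CPM, and the others at 0.811 to 5.97 CPM. For Scgb3a1, air day 27 library 4 stood at 26.5 CPM, and the others at 3.0 to 12.2 CPM. Hbb-b1 was at 471 CPM in air day 27 library 8, and at 311 to 376 CPM in the others.

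Igkc was at 788 CPM in air day 7 library 5, and at 170 to 435 CPM in the others of that day. Mcpt1 was at 26.1 CPM in air day 1 library 6, and at 4.06 to 12.3 CPM in the others. Hsph1 was at 283 CPM in air day 7 library 8, and at 94.5 to 149 CPM in the others. Hspa1b was set apart on every day: it was at 248.6 CPM in air day 1 library 4 (others 22.2 to 101.2 CPM), at 443 CPM in air day 7 library 8 (others 22.3 to 168 CPM), and at 244 CPM in air day 27 library 8 (others 29.9 to 70.4 CPM). Per1 was at 134 CPM in air day 7 library 8, and at 20.5 to 57.8 CPM in the others. Tsc22d3 was at 454 CPM in that library, and at 124 to 233 CPM in the others. Of the 12, 4 came from air day 7 library 8.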

How the results depend on the processing

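No paired analysis was possible because the 3 air groups share no replicate numbers that pair animals and no 2 groups were compared. Part of the named genes, mostly those with the smallest p for each marker gene, were followed over the settings. Over 1569 combinations of such a gene and a setting, 1439 kept direction and side of the threshold, 130 lost the threshold and 0 changed sign. Settings in which a gene was not tested are left out. Other named genes, such as Per1, Tsc22d3, Dusp1, Hspa1a, Cxcr2 and the genes called with Rsph1, are not among these combinations. With the ribosomal protein level as a covariate, genes called numbered 1 with Dnah5, 4 with Cd79a, 15 with S100a9, 376 with Hsph1 and 0 with Fkbp5. With DESeq2 they numbered 120 with Cd79a, 5 with Fos, 196 with Fkbp5 and 14 with Dbp. With the pairs kept apart they numbered 86 with Cd79a, 4 with Fos and 15 with Fkbp5. A covariate for each library's log2 total left 12 with Cd79a and 2 with Fkbp5. A minimum mean of 1 CPM gave 33 genes with Myh6, 889 and 294 genes with an SD of at least 0.5 and 1, and a median SD of 0.162. With Rsph1 or Tekt1 as the ciliated marker in place of Dnah5, chosen after seeing the data, 85 and 2 genes were called. RLE size factors and DESeq2 turned the Dnah5 split to 2384 higher and 2135 lower, and to 2556 and 2030. Leaving out each library in turn gave 7 to 11 genes with Myh6, 3086 to 4773 with Dnah5, 2 to 7 with Alas2, 8 to 1325 with Cd79a, 49 to 2752 with S100a9, 0 to 6 with Fos, 67 to 295 with Hsph1, 0 to 1206 with Fkbp5, 3 to 6 with Dbp and 39 to 160 with Rsph1. It gave 244 to 282 genes with an SD of at least 0.5, 83 to 91 with at least 1, and a median SD of 0.136 to 0.143. The cause of these shifts was not tested. Depth limits genes near 5 CPM, where the spread was widest.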

Other observations

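LOC100362366 was at 1.57 CPM or less in all 8 air day 1 libraries, and at 0.970 to 89.8 CPM at day 7 and 0.949 to 131 CPM at day 27. Retnla, a secreted protein of type 2 immunity, was at 4.02 to 71.4 CPM at day 1, 2.41 to 45.5 CPM at day 7 and 6.40 to 143 CPM at day 27, so lungs of 1 day differed by over 10 times in it.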
